A study of Arabidopsis thaliana with 15 samples.

Results

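The response of Arabidopsis thaliana roots to mannitol was measured by bulk RNA-seq, which counts reads of polyadenylated RNA on each gene over a pooled organ. Mannitol is a sugar alcohol that plants take up slowly, and it is used to lower the water potential of a medium without adding ions. Of the 15 libraries of the series, 6 are described here, chosen by their sample titles and column names: 3 of Col-0 wild type treated with 300 mM mannitol and 3 of the same wild type from an untreated control that the labels name as the control of mannitol. The other libraries hold a further untreated group (mock), salt (150 mM NaCl) and flg22. The methods describe samples as pools of about 120 roots, cut from seedlings of 6 days at 3 h after treatment, and the stress treatments for imaging placed the mannitol seedlings on plates with mock plates beside them. The labels give whole seedling as the tissue and times of 0 and 3 h without tying a time to a sample. No mutant, transgene or sorted cells entered these groups, so every value is an average over all cell types of the sampled tissue.

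Lowered water potential makes plants form abscisic acid (ABA), a hormone cut from carotenoid precursors by the NCED dioxygenases. ABA is bound by the PYR/PYL receptors, which then hold clade A protein phosphatases 2C (PP2Cs) inactive. This frees SnRK2 kinases to phosphorylate bZIP factors of the ABF group, which bind promoters at the ABA-responsive element, a short sequence around ACGTG, and raise genes for dehydrins, late embryogenesis abundant (LEA) proteins and sugars that protect dehydrated cells. Part of the osmotic response does not need ABA and runs through DREB factors. SUMO is a small protein that is matured by proteases, carried by the E1 and E2 enzymes, attached to target proteins with the help of E3 and E4 ligases, and removed again by proteases of the ULP and DeSI families. Sumoylated proteins accumulate in plants under heat, osmotic and other stresses.

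Total counts were 10527519, 11460124 and 12714380 in the 3 mannitol libraries and 11803991, 13943645 and 12636560 in the 3 control libraries. A level of 3 counts, taken as the floor, corresponds to 0.236 to 0.285 CPM (counts scaled to a common library size) in mannitol and to 0.215 to 0.254 CPM in the control, and covers counting error only. This floor was scaled by total counts alone. The CPM values of genes also carry normalization factors, 0.9338 to 0.9667 in mannitol and 1.044 to 1.055 in the control, so the scales differ slightly. CPM is not divided by gene length, so it serves to compare samples and not genes. Replicates differed by more than sampling noise, and mannitol replicate A stood apart, at 8.53 and 9.74 in chi-square over degrees of freedom against its partners, whereas mannitol B and C differed by 3.98 and the control pairs by 3.53 to 3.71. The tissue was checked against markers. Summed over 9 photosynthesis genes that mark shoots (6 of them with enough counts for a test), the level was 96 to 122 CPM in mannitol and 96.9 to 121 CPM in the control. Summed over 12 genes that mark roots, it was 6576 to 7910 CPM in mannitol and 11388 to 12426 CPM in the control, most of it from PYK10. Of 10 genes in common use as references, UBQ10 rose by 0.72 on the log2 scale and ACT2 and EF1A fell by 0.50 and 0.22, and the others did not pass the test.

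**Figure D1:**
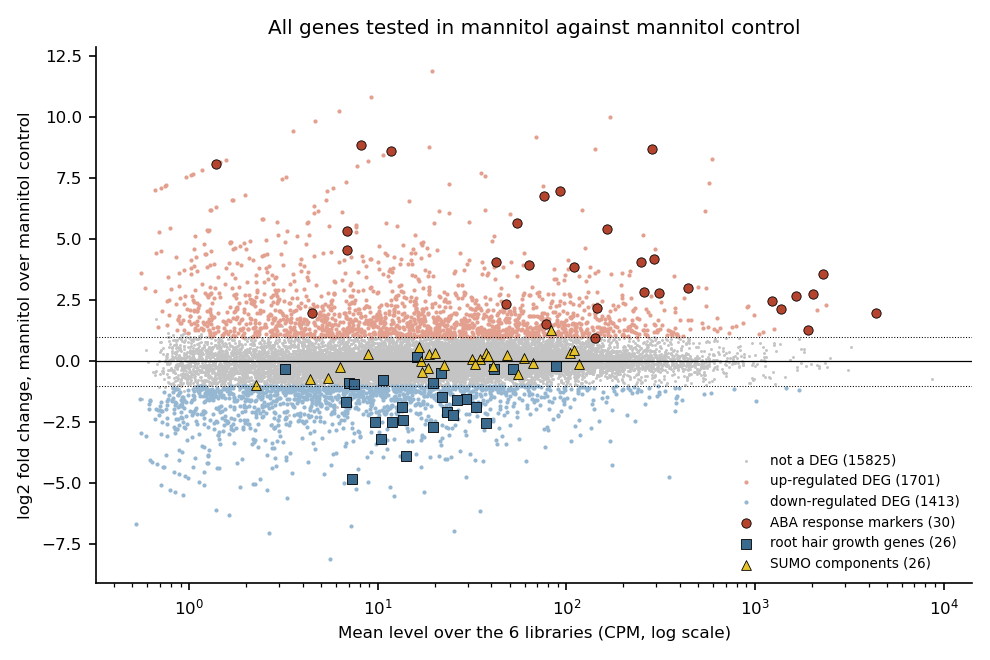
Each point is a gene tested, with its mean level over the 6 libraries on the x axis (CPM, log scale) and the log2 fold change of mannitol over mannitol control on the y axis. The 1701 up-regulated and 1413 down-regulated DEGs are in pale red and pale blue, and the 30 ABA response markers, 26 root hair genes and 26 SUMO components are drawn larger. The markers lie between 0.95 and 8.86, the root hair genes between -4.83 and 0.19 and the SUMO components between -0.96 and 1.29.

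Mannitol and its control were compared over 18939 genes by the quasi-likelihood test of edgeR, with p-values adjusted after Benjamini and Hochberg. Genes were called differentially expressed (DEGs) where the adjusted p was below 0.05 and the log2 fold change was 1 or more in either direction, and 3114 genes met this (16.4% of those tested), 1701 up-regulated (8.98%) and 1413 down-regulated (7.46%). By the adjusted p alone, 52.1% of genes passed, 26.0% higher and 26.0% lower in mannitol, so that most gene lists of any kind hold members that passed. The counts given for lists below are to be read beside these shares. The median log2 fold change of all genes tested was -0.02. Changes of at least 3 on the log2 scale were found for 278 up-regulated and 144 down-regulated DEGs. In normalized CPM, the up-regulated DEGs summed to 169552 CPM in mannitol and 48174 CPM in the control, and the down-regulated DEGs to 19330 CPM in mannitol and 54948 CPM in the control. Of the DEGs, 16 had no count in any control library and 1 had none in any mannitol library.

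Some of the genes that lead the response are known for their ABA-responsive promoters, so the 250 bases before the annotated start of genes tested were read from the RefSeq annotation of TAIR10.1, which placed 18938 of the 18939 genes. The promoters of RD29B (a hydrophilic desiccation protein, chr5:21236771-21237020, plus strand), LEA7 (a LEA protein, chr1:19619474-19619723, plus strand), HAI2 (a clade A PP2C, chr1:2282829-2283078, minus strand) and RAB18 (AT5G66400, a dehydrin, chr5:26519448-26519697, minus strand) stand for genes that rose, and that of RHS18 (a peroxidase gene of root hairs, chr5:7426060-7426309, plus strand) for genes that fell. Each is written from 5′ to 3′ on the strand of the gene, with ACGTG and its reverse complement CACGT in capitals.
RD29B: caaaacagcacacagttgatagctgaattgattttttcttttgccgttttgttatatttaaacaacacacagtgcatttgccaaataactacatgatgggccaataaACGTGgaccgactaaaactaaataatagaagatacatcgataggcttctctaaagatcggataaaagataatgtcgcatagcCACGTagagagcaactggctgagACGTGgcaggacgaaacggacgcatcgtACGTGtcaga
LEA7: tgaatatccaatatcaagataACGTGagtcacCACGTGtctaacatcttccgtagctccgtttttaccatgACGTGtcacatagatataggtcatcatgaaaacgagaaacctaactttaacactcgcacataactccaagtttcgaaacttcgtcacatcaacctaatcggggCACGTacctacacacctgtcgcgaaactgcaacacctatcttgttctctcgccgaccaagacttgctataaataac
HAI2: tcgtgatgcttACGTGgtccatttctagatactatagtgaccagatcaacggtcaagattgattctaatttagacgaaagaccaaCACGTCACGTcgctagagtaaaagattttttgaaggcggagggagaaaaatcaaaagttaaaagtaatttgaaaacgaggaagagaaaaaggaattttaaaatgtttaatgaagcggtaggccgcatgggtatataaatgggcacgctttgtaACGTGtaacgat
RAB18: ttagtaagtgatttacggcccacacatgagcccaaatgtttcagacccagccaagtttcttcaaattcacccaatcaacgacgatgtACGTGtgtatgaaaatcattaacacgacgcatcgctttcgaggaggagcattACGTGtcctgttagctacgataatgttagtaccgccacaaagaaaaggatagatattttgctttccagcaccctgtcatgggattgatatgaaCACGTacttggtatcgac
RHS18: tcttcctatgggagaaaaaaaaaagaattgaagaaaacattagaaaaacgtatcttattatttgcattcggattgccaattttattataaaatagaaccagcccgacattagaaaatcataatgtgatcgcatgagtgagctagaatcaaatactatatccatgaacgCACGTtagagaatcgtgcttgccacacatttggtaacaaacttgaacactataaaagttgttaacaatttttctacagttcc
Counting both strands, so that the palindrome CACGTG counts as 2 overlapping matches, ACGTG occurred 4 times in the RD29B, 5 times in the LEA7, 4 times in the HAI2, 3 times in the RAB18 and 1 time in the RHS18 promoter. It occurred at least 1 time in 24.0% of all promoters of this length, in 36.3% of those of up-regulated DEGs, in 27.3% of those of down-regulated DEGs and in 45.3% of those of genes that rose by 3 or more on the log2 scale. Among genes with the largest increases in CPM, COR47, ADC2, ERD10, COR413-PM1 and LTI30 had no match in this window, and ERD14 and KIN1 had 1 each. COR15B and MYB121 had none either, whereas the other genes ranked 4 to 15 by log2 increase had 2 to 6. The longer ACGTGTC, also searched on both strands, occurred in 10.9% of the promoters of up-regulated DEGs, 1.56% of those of down-regulated DEGs and 4.32% of all. Among the lists described below, ACGTG occurred in 17 of 30 promoters of ABA response markers, 6 of 9 of clade A PP2Cs, 14 of 26 of root hair genes and 7 of 26 of SUMO components. ACGTGTC occurred in 6 of the marker promoters and in none of the root hair promoters. The core of the DREB element, CCGAC, occurred in 15.8% of the promoters of up-regulated DEGs, 9.20% of those of down-regulated DEGs and 13% of all. A match describes the letters in this window and not a bound site.

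All 30 ABA response markers were higher in mannitol by the adjusted p, without overlap between the groups, and 29 of them were DEGs (ERD1, at 0.95, was one only without mannitol C, at 1.03). Their median log2 fold change was 3.73, against -0.02 over all genes tested, and 60.7% of all genes had groups that did not overlap. Markers near 0 in the control passed the count filter only through mannitol, so that only a rise could be called in them. With at least 10 counts required in every library, 25 markers were tested, 24 were up-regulated DEGs and the median was 2.83. RD29B had 627, 647 and 437 CPM in mannitol, against 1.54, 1.5 and 1.06 CPM in the control (log2 fold change 8.69, SE 0.22, adjusted p = 1.65e-10). RAB18 (AT5G66400) had 194, 145 and 114 CPM in mannitol, against 1.95, 0.816 and 1.44 CPM in the control (6.77, SE 0.32, adjusted p = 2.26e-06). Every mannitol library was far above every control library in both genes, and mannitol A was the highest in RAB18.

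ABA response markers of other roles rose as well. ADH1, an alcohol dehydrogenase induced by low oxygen and by dehydration, had 602, 588 and 472 CPM in mannitol, against 37.0, 27.6 and 27.7 CPM in the control (log2 fold change 4.17, SE 0.14, adjusted p = 1.94e-10). TSPO, a membrane protein that plants form transiently under stress, had 339, 363 and 264 CPM in mannitol and 11.1, 5.10 and 6.52 CPM in the control (5.43, SE 0.27, adjusted p = 3.19e-06). AFP1, a binding partner of the bZIP factor ABI5, had 198, 220 and 199 CPM in mannitol and 13.9, 13.9 and 14.3 CPM in the control (3.87, SE 0.08, adjusted p = 1.91e-12). The spread within each group was small beside these differences. EM1, a LEA gene of maturing seeds, had 3.05, 3.54 and 1.71 CPM in mannitol and no count in the control, which makes it at least 10.9-fold higher against the floor of 3 counts in the smallest control library.

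The largest increases in CPM fell on members of the same kind. COR47, a dehydrin, had 7968, 6839 and 6060 CPM in mannitol, against 2029, 1590 and 1730 CPM in the control (log2 fold change 1.96, SE 0.12, adjusted p = 1.19e-08). The dehydrins ERD10, LTI30 and ERD14 averaged 3546 ± 386, 2852 ± 262 and 2232 ± 192 CPM in mannitol, and 531 ± 57.5, 445 ± 65.0 and 512 ± 66.7 CPM in the control (SD, n = 3 each). ADC2, an arginine decarboxylase of polyamine synthesis, had 4188, 3676 and 3980 CPM in mannitol and 836, 787 and 790 CPM in the control (2.29, SE 0.08, adjusted p = 1.29e-10). COR413-PM1, a cold-regulated membrane protein, averaged 3440 ± 247 CPM in mannitol and 800 ± 86.3 CPM in the control (SD, n = 3). In each of these the groups did not overlap. KIN1, a small hydrophilic protein of cold and ABA responses, averaged 2072 ± 166 CPM in mannitol and 377 ± 74.2 CPM in the control (SD, n = 3).

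**Figure D2:**
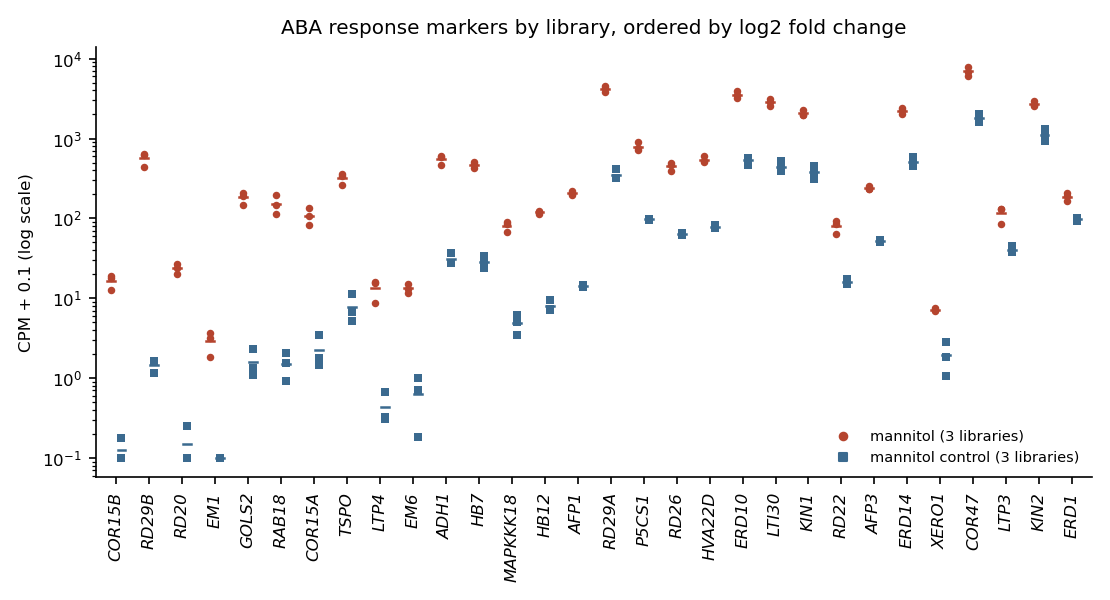
Level of the 30 ABA response markers in each library (CPM + 0.1, log scale), ordered by log2 fold change, with red points for the 3 mannitol libraries and blue squares for the 3 control libraries. In every gene the 3 mannitol libraries lie above the 3 control libraries, and the smallest log2 fold change is 0.95 in ERD1.

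The core of the ABA pathway changed in opposite directions at its steps. All 9 clade A PP2Cs, the phosphatases that switch the pathway off, were up-regulated DEGs (median log2 fold change 2.61), while 4 of 10 receptors tested were down-regulated DEGs and 1 was up-regulated (median -0.76). By the adjusted p, 7 receptors were lower and 2 were higher. Summed over the receptor genes, the level was 178 to 204 CPM in mannitol and 354 to 376 CPM in the control. Of 10 SnRK2 kinases 4 and of 8 bZIP factors 5 were up-regulated DEGs, with 7 of each higher by the adjusted p and none lower.

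Among the PP2Cs, HAI2 had 71.4, 77.7 and 62.2 CPM in mannitol, against 0.324, 0.340 and 0.303 CPM in the control (log2 fold change 7.72, SE 0.18, adjusted p = 3.71e-12). HAI3 and HAI1, its nearest relatives, rose by 7.17 (SE 0.20, adjusted p = 6.70e-11) and 5.16 (SE 0.10, adjusted p = 8.20e-13) on the log2 scale. ABI1 and PP2CA, which carry much of the negative control of ABA signalling, averaged 725 ± 32.9 and 339 ± 28.2 CPM in mannitol, and 120 ± 12.8 and 55.6 ± 5.71 CPM in the control (SD, n = 3 each). The smallest change was that of HAB2, at 1.31. With at least 10 counts required in every library, 7 clade A PP2Cs were tested, and all 7 were up-regulated DEGs. Of 55 genes tested whose product is named as a protein phosphatase 2C in the annotation, ABI1, ABI2 and PP2CA among them, 10 were up-regulated DEGs and none was down-regulated (median 0.20).

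Of the receptors, PYL6 had 5.09, 3.45 and 3.09 CPM in mannitol, against 23.3, 26.3 and 30.3 CPM in the control (log2 fold change -2.80, SE 0.17, adjusted p = 1.82e-08). PYL4 had 24.8, 24 and 19.7 CPM in mannitol and 73.8, 82.7 and 86.2 CPM in the control (-1.84, SE 0.10, adjusted p = 4.57e-09). PYR1, the founding member, had 43.6, 38.8 and 44.9 CPM in mannitol and 86.5, 96.9 and 90.3 CPM in the control (-1.10, SE 0.08, adjusted p = 1.01e-07). None of these groups overlapped. The remaining down-regulated receptor, PYL1, lay at the fold threshold (-1.01) and was no DEG without mannitol B (-0.97), mannitol C (-0.98) or control C (-0.97), or with DESeq2 size factors. PYL2 was no DEG (-1.0), but was one without mannitol A (-1.01), mannitol C (-1.07), control A (-1.03) or control C (-1.14). The receptor that rose, PYL7, had 1.43, 1.36 and 2.69 CPM in mannitol and 0.648, 0.204 and 0.228 CPM in the control (2.37, SE 0.51, adjusted p = 0.00141), and 41.4% of its 100-base windows are shared with AT4G01030, so that its nonstranded counts are uncertain.

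SNRK2.7 had the largest change among the kinases, with 215, 168 and 158 CPM in mannitol, against 32.8, 21.4 and 26 CPM in the control (log2 fold change 2.75, SE 0.17, adjusted p = 9.57e-07). OST1 (SnRK2.6), the ABA-activated kinase of guard cells, had 63.7, 57.5 and 55.6 CPM in mannitol and 21.3, 21.2 and 21.6 CPM in the control (1.46, SE 0.09, adjusted p = 1.10e-08). SNRK2.2, another ABA-activated kinase, averaged 119 ± 6.51 CPM in mannitol and 122 ± 2.9 CPM in the control (SD, n = 3), which did not differ by the test (adjusted p = 0.773). Among the bZIP factors, ABI5 had 11.7, 16 and 16.4 CPM in mannitol, against 3.32, 2.11 and 2.5 CPM in the control (2.49, SE 0.20, adjusted p = 2.51e-07). ABF2 had 167, 178 and 166 CPM in mannitol and 46.4, 45.0 and 51.7 CPM in the control (1.83, SE 0.08, adjusted p = 4.49e-10). GBF3, ABF3 and ABF4 rose by 1.92, 1.18 and 1.15 on the log2 scale, and AREB3 did not pass the test (0.16, adjusted p = 0.208).

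Enzymes of ABA synthesis rose in part, and so did 1 of 2 tested that break the hormone down. Of 8 synthesis genes tested, 3 were up-regulated DEGs and 6 were higher by the adjusted p (median log2 fold change 0.69), with none lower. The DEGs numbered 2 without mannitol A, mannitol B, control A or control B. NCED9 no longer passed in these fits (adjusted p = 0.06378, 0.06155, 0.08375 and 0.08638). Without mannitol A or control B, 4 synthesis genes were higher by the adjusted p. Besides NCED3, ABA1 (zeaxanthin epoxidase) had 151, 158 and 133 CPM in mannitol, against 53.8, 43.4 and 46.6 CPM in the control (1.62, SE 0.10, adjusted p = 9.53e-09). AAO3, the oxidase of the last step, averaged 51.6 ± 1.88 CPM in mannitol and 27.6 ± 1.72 CPM in the control (SD, n = 3; log2 fold change 0.91). CYP707A1, an ABA 8′-hydroxylase that inactivates the hormone, had 185, 203 and 153 CPM in mannitol and 37.8, 30.2 and 37.9 CPM in the control (2.36, SE 0.12, adjusted p = 3.51e-09). The other hydroxylase tested, CYP707A3, did not pass (-0.33, adjusted p = 0.186).

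The genes that ranked 4 to 15 by log2 fold change among up-regulated DEGs (mean of at least 5 CPM, groups without overlap) include 3 LEA genes: AT3G17520, AT3G15670 and LEA7. LEA7 had 1287, 1203 and 1034 CPM in mannitol, against 2.59, 4.42 and 4.10 CPM in the control (8.29, SE 0.16, adjusted p = 8.20e-13). AT3G17520 had 364, 396 and 259 CPM in mannitol and 0.243, 0.340 and 0.379 CPM in the control (9.99, SE 0.26, adjusted p = 4.26e-10), and AT3G15670 had 288, 307 and 258 CPM in mannitol and 0.567, 0.136 and 1.36 CPM in the control (8.70, SE 0.27, adjusted p = 9.82e-09). The controls of the last 2 genes lay at or near the floor in part of the libraries. Over the whole class, 31 of 70 LEA and dehydrin genes tested were up-regulated DEGs and 8 were down-regulated (median 0.65). With at least 10 counts required in every library, 17 LEA and dehydrin genes were up-regulated, since genes near 0 in the control were then no longer tested.

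ASN1, an asparagine synthetase that is known for its induction by darkness and sugar starvation, had 145, 130 and 138 CPM in mannitol, against 0.405, 0.0680 and 0.228 CPM in the control (log2 fold change 9.20, SE 0.18, adjusted p = 8.20e-13). For 6 of these top genes the control libraries held only 1 to 3 counts together, so a ratio of pooled CPM with its 95% exact counting interval is given in place of the fitted value. COR15B, a cold-regulated chloroplast protein, was 590-fold higher in mannitol (105 to 23300) and AT5G50360, a von Willebrand factor A domain protein, 453-fold (155 to 2200). RD20, a caleosin of lipid droplets, was 429-fold higher (118 to 3550) and MYB121, a MYB factor, 390-fold (108 to 3230). SWEET4, a sugar transporter, was 320-fold higher (88.1 to 2650) and AT5G05220, an uncharacterized protein, 284-fold (78.1 to 2350). Their mannitol libraries lay between 12.5 and 43.0 CPM.

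Genes for compatible solutes rose in part. Of 9 galactinol and raffinose synthesis genes, 6 were up-regulated DEGs (median log2 fold change 1.12) and GOLS3 was lower (-0.92, adjusted p = 0.00463; a DEG at -1.06 without mannitol A and at -1.04 without control C). GOLS2, a galactinol synthase, had 193, 209 and 148 CPM in mannitol, against 2.19, 1.23 and 0.986 CPM in the control (6.97, SE 0.22, adjusted p = 3.16e-09), and GOLS4 had 222, 204 and 215 CPM in mannitol and 26.0, 12.7 and 18.3 CPM in the control (3.50, SE 0.22, adjusted p = 1.06e-05). Among 8 proline genes P5CS1 alone was a DEG, and PRODH1, which breaks proline down, averaged 170 ± 49.2 CPM in mannitol and 205 ± 60.4 CPM in the control (SD, n = 3; adjusted p = 0.532). Genes for the transport and oxidation of polyols, the class of compounds to which mannitol belongs, moved both ways. PMT3, a polyol transporter, had 11.2, 8.18 and 11.2 CPM in mannitol and 1.14, 1.77 and 1.59 CPM in the control (2.74, SE 0.23, adjusted p = 3.01e-07). PMT6 had 1.53, 0.818 and 1.71 CPM in mannitol and 13.8, 11.2 and 15.2 CPM in the control (-3.29, SE 0.24, adjusted p = 7.68e-08). The other 2 transporters of this list that were tested, PMT4 and PMT5, did not pass (-0.06 and -0.01).

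Aquaporins, which conduct water and small solutes across membranes, were split. Of 28 tested, 2 were up-regulated and 4 down-regulated DEGs (7.14% and 14.3%, against 8.98% and 7.46% of all genes). By the adjusted p, 6 were higher and 12 lower, together 64.3%, against 52.1% of all genes (median log2 fold change -0.08). The up-regulated genes were TIP2;3 of the tonoplast, with 305, 275 and 225 CPM in mannitol, against 113, 88.8 and 103 CPM in the control, and PIP1;4 of the plasma membrane, with 310, 334 and 299 CPM in mannitol, against 125, 132 and 143 CPM in the control. Their log2 fold changes were 1.4 (SE 0.12, adjusted p = 5.13e-07) and 1.24 (SE 0.08, adjusted p = 2.17e-08). The down-regulated genes were NIP3;1 (-2.59), PIP2;4 (-1.64), PIP1;5 (-1.46) and NIP6;1 (-1.42). By the adjusted p, PIP and TIP isoforms each included higher and lower members.

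Transcription factors of osmotic stress rose in several families. Of 11 NAC factors tested 7 and of 7 DREB/CBF factors 5 were up-regulated DEGs (medians 2.53 and 1.70). Members near 0 in the control passed the count filter only through mannitol, so that only a rise could be called in them. Where at least 10 counts were required in every library, 10 NAC factors were tested and 6 were up-regulated DEGs (median 1.98). ANAC019 had 6.72, 5.82 and 8.79 CPM in mannitol and no count in the control, at least 28.0-fold higher against the floor. ANAC055, its close relative, had 25.1, 19.9 and 19.1 CPM in mannitol, against 0.810, 0.748 and 1.52 CPM in the control (log2 fold change 4.37, SE 0.23, adjusted p = 2.93e-09). ORE1, a NAC factor of senescence, had 56.7, 45.2 and 48.1 CPM in mannitol and 6.97, 7.48 and 8.19 CPM in the control (2.72, SE 0.12, adjusted p = 5.77e-10), and ATAF2 was lower (-0.34, adjusted p = 0.00455). DREB2A rose to 174 ± 22.1 CPM in mannitol, against 44.0 ± 6.01 CPM in the control (SD, n = 3; log2 fold change 1.99), whereas the CBF genes and DREB2B stayed under 4 CPM in every library, so that their calls rest on few counts. With at least 10 counts required in every library, DREB2A was the only up-regulated DEG left in this list, and 3 were left without mannitol B. Of 9 zinc finger factors of the ZAT and AZF group, ZAT6, ZAT10 and AZF2 were up-regulated (2.29, 3.05 and 2.76) and AZF1 was down-regulated (-1.32).

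Chaperones of the heat shock response were higher as well. Of 12 genes for small heat shock proteins, HSP101 and related chaperones tested, 8 were up-regulated DEGs and 10 were higher by the adjusted p (median log2 fold change 1.82). Where at least 10 counts were required in every library, 10 of these genes were tested and 6 were up-regulated DEGs (median 1.72). HSP22, a small heat shock protein of the endoplasmic reticulum (ER), had 48.8, 43.4 and 32.2 CPM in mannitol, against 0.810, 0.612 and 0.303 CPM in the control (6.15, SE 0.25, adjusted p = 5.29e-10). HSFA2, a heat shock factor, and HSP90.1 did not pass the test (0.18, adjusted p = 0.486, and 0.21, adjusted p = 0.272).

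**Figure D3:**
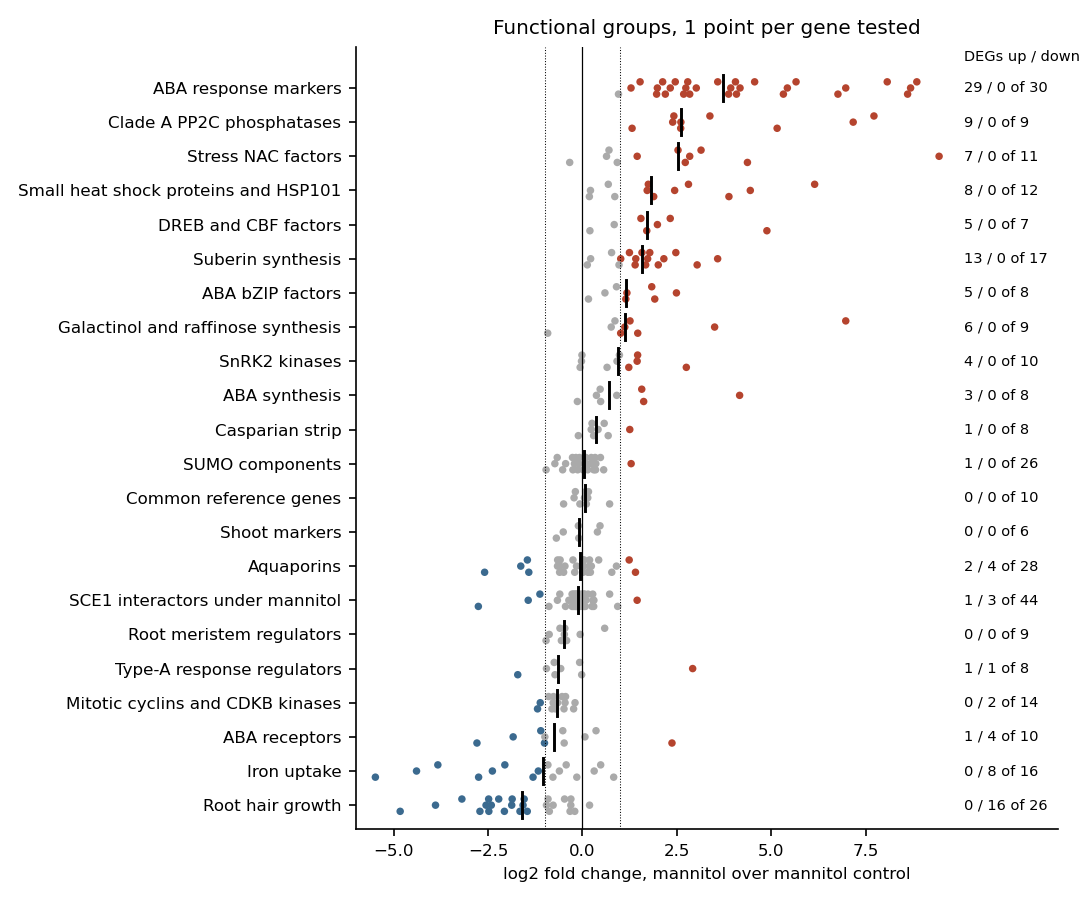
Each point is a gene tested, placed by its log2 fold change of mannitol over mannitol control (x axis), in a row for each functional group. Clade A PP2Cs (9 of 9) and ABA response markers (29 of 30) hold the most up-regulated DEGs for their size. Root hair genes (16 of 26) and iron uptake genes (8 of 16) are among the groups with down-regulated DEGs only.

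Suberin, a polyester laid down around endodermal cells, is formed by a chain of acyl-lipid enzymes under MYB factors. Of 17 suberin genes tested, 13 were up-regulated DEGs, 15 were higher by the adjusted p and none was lower (median log2 fold change 1.58). GPAT7, an acyltransferase, had 430, 273 and 256 CPM in mannitol, against 20.8, 29.7 and 29.3 CPM in the control (3.58, SE 0.26, adjusted p = 3.19e-05). MYB41, a MYB factor that activates suberin genes, had 138, 114 and 99.9 CPM in mannitol and 13.8, 12.7 and 16.4 CPM in the control (3.04, SE 0.13, adjusted p = 1.54e-09). Mannitol A was the highest library in both genes. Summed over the list, the level was 5151 CPM in mannitol A, 3488 in B and 3352 in C, against 1111 to 1283 CPM in the control. Without mannitol A, 11 of the 17 remained above the DEG thresholds and the median was 1.28. Genes of the Casparian strip, the lignin barrier of the same cell layer, changed less, with 6 of 8 higher by the adjusted p and 1 DEG, CASP5 (32.7, 36.2 and 32.6 CPM in mannitol and 16.4, 12.5 and 13.8 CPM in the control, log2 fold change 1.25). The higher ones numbered 4 without mannitol A, mannitol B, control B or control C. They also numbered 4 with upper-quartile normalization and with all 15 libraries.

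Genes of root hair growth fell. Of 26 tested, 16 were down-regulated DEGs and 22 were lower by the adjusted p (median log2 fold change -1.62), and none was higher. Where at least 10 counts were required in every library, 24 were tested and 14 were down-regulated DEGs. Summed over the list, the level was 317 to 373 CPM in mannitol and 664 to 924 CPM in the control. In pooled tissue, fewer hair cells and less RNA of these genes per hair cell cannot be told apart. RHS18 had 1.02, 0.273 and 0.244 CPM in mannitol, against 17, 16.3 and 8.57 CPM in the control (-4.83, SE 0.45, adjusted p = 7.39e-06). LRX1, a wall protein of the hair tip, had 5.50, 5.09 and 4.89 CPM in mannitol and 37.3, 34.1 and 30.3 CPM in the control (-2.72, SE 0.13, adjusted p = 1.24e-09). EXPA18, an expansin of hairs, had 9.37, 8.0 and 9.37 CPM in mannitol and 44.1, 35.9 and 32.4 CPM in the control (-2.07, SE 0.14, adjusted p = 2.75e-08).

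The regulators of hair formation fell in part. RHD6 and RSL1, the bHLH factors that start a hair, did not pass the test (0.19, adjusted p = 0.247, and -0.31, adjusted p = 0.305). RSL2 and RSL4, which act after them, were lower, RSL2 with 3.26, 3.36 and 3.18 CPM in mannitol, against 13.9, 8.03 and 9.18 CPM in the control (-1.66, SE 0.23, adjusted p = 3.36e-05), and RSL4 by less (-0.91, adjusted p = 0.00155; a DEG at -1.03 without control B and at -1.0 without control C). GL2, a factor of non-hair epidermis from the list of root markers, was lower too (-1.57, adjusted p = 6.33e-05). EXPA7 and XTH14, other hair wall genes, did not pass (-0.31, adjusted p = 0.0641, and -0.33, adjusted p = 0.350).

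Families of wall proteins, in which the hair genes EXPA18, EXT12, EXT14 and AGP3 are counted again, had DEGs in both directions. Among all genes tested, 8.98% were up-regulated and 7.46% down-regulated DEGs. Of 22 xyloglucan endotransglucosylases (XTHs), 10 were down-regulated DEGs and 4 up-regulated (median log2 fold change -0.58). XTH17 had 2.75, 5.36 and 3.66 CPM in mannitol, against 69.4, 69.9 and 65.4 CPM in the control (-4.11, SE 0.15, adjusted p = 1.13e-10), and XTH15 and XTH21 fell by 4.07 and 4.02 on the log2 scale. TCH4 (XTH22), known for its response to touch, had 25.2, 23.1 and 25.6 CPM in mannitol and 2.03, 1.5 and 1.14 CPM in the control (3.99, SE 0.18, adjusted p = 6.43e-10). Of 19 expansins, 8 rose and 5 fell as DEGs, with EXLA3 (2.91), EXPA10 (2.19), EXLA1 (2.08) and EXPA1 (2.04) among those that rose. Of 38 arabinogalactan proteins, 12 fell and 4 rose (median -0.63), AGP22 to 5.6, 7.63 and 6.92 CPM in mannitol, against 114, 114 and 119 CPM in the control (-4.10, SE 0.10, adjusted p = 7.47e-12). Extensins and other proline-rich wall proteins (18 up-regulated and 25 down-regulated of 140), pectin methylesterases and their inhibitors (11 and 10 of 51) and class III peroxidases (8 and 13 of 55) had DEGs both ways. Of 23 cellulose synthases and related genes, 4 fell, among them CESA2 (-1.29, adjusted p = 3.58e-09), and 1 rose. Among genes ranked 4 to 15 by decrease, EXT11, AT4G08410 (extensin-like, with 28.7% of its windows shared with AT4G08400) and AT4G22666 (a lipid-transfer protein) fell by 5.51, 5.22 and 4.76 on the log2 scale.

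The thalianol genes, which lie side by side on chromosome 5 and form a root triterpene, held some of the largest decreases. THAS1, the thalianol synthase, had 32.2, 19.0 and 23.7 CPM in mannitol, against 600, 681 and 736 CPM in the control (log2 fold change -4.76, SE 0.17, adjusted p = 9.10e-09). CYP705A5, a cytochrome P450 of the cluster, had 22, 11.8 and 18.9 CPM in mannitol and 313, 314 and 363 CPM in the control (-4.24, SE 0.18, adjusted p = 9.29e-08). AT5G47980, an acyltransferase of the cluster that ranked 4 among all decreases, had 1.53, 0.454 and 0.977 CPM in mannitol and 61.3, 72.4 and 73.2 CPM in the control (-6.14, SE 0.20, adjusted p = 3.57e-11). Mannitol B was the lowest library in each of these 3 genes. The neighbours CYP708A2 and AT5G47950, named after their values were seen, fell by 3.28 and 4.32 on the log2 scale. CYP716A2, a P450 from a family known for triterpene oxidation, also ranked among the decreases, with 0.407, 0 and 0.733 CPM in mannitol and 12.2, 9.05 and 8.57 CPM in the control (-4.62, SE 0.42, adjusted p = 1.13e-06).

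The largest decreases in CPM fell on ER body genes. ER bodies are root compartments filled with the beta-glucosidase PYK10, which acts with jacalin-type lectins after tissue damage. PYK10 had 7116, 5991 and 6532 CPM in mannitol, against 10536, 10539 and 11514 CPM in the control (log2 fold change -0.73, SE 0.09, adjusted p = 1.62e-05). NAI2, needed to form the bodies, had 475, 473 and 538 CPM in mannitol and 1486, 1521 and 1589 CPM in the control (-1.63, SE 0.08, adjusted p = 1.93e-09). The lectins PBP1 (AT3G16420), JAL34 and JAL33 fell by 1.18, 1.1 and 1.34 on the log2 scale, of which JAL34 shares 20.4% of its windows with AT3G16470. NAI1, the bHLH factor of this system, named after its values were seen, fell by 1.16 (adjusted p = 6.84e-08). Further large decreases in CPM were those of MLP34 (-1.14), DR4, named for repression by drought (-1.31), and AT3G20370, a TRAF-like protein (-2.03).

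**Figure D4:**
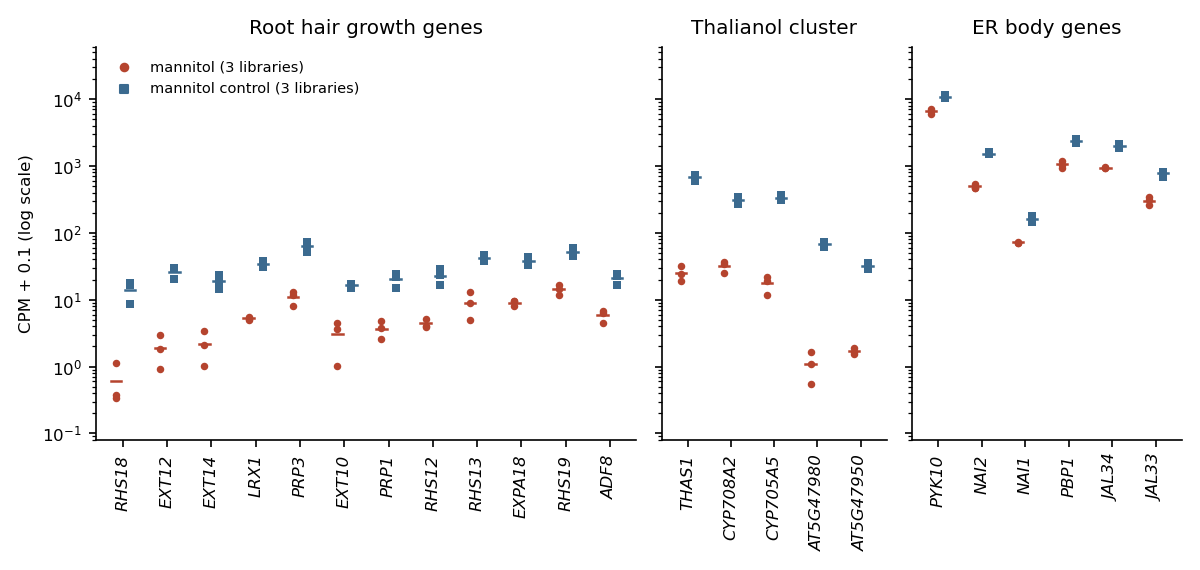
Levels in each library (CPM + 0.1, log scale) of root hair genes, of the 5 thalianol cluster genes and of 6 ER body genes, with red points for the 3 mannitol libraries and blue squares for the 3 control libraries. The root hair genes shown are those with the largest decreases among the down-regulated DEGs of that list. Members that were not DEGs are left out. In all thalianol and ER body genes shown the mannitol libraries lie below the control libraries, and the thalianol genes have log2 fold changes from -6.14 in AT5G47980 to -3.28 in CYP708A2.

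Iron uptake genes fell for the most part, and nitrate genes changed both ways. Of 16 iron uptake genes tested, 8 were down-regulated DEGs, 11 were lower and 2 higher by the adjusted p (median log2 fold change -1.04). FIT, the central bHLH factor, had 15, 13.6 and 10.8 CPM in mannitol, against 71.6, 61.0 and 72.1 CPM in the control (-2.39, SE 0.12, adjusted p = 1.93e-09), and its partner bHLH39 had 5.91, 6.81 and 6.35 CPM in mannitol and 37.4, 45.6 and 45.8 CPM in the control (-2.75, SE 0.12, adjusted p = 7.74e-10). The transporter IRT1 ranged widely, averaging 97.1 ± 60.6 CPM in mannitol and 108 ± 14.0 CPM in the control (SD, n = 3; adjusted p = 0.855). With at least 10 counts required in every library, 4 iron uptake genes were down-regulated DEGs. Of 8 nitrate uptake and reduction genes tested, 2 were up-regulated DEGs and 1 was down-regulated, and 3 were higher and 4 lower by the adjusted p (median -0.10; 0.05 with at least 10 counts in every library). NRT2.1, a high-affinity nitrate transporter, had 1.32, 0.545 and 0.651 CPM in mannitol, against 37.0, 29.7 and 35.9 CPM in the control (-5.37, SE 0.22, adjusted p = 2.56e-10), while NIA1, a nitrate reductase, had 65.4, 35.7 and 52.6 CPM in mannitol and 14.2, 13.7 and 12 CPM in the control (1.94, SE 0.21, adjusted p = 5.15e-05). PHT1;1, a phosphate transporter, had 105, 50.7 and 60.3 CPM in mannitol and 368, 385 and 425 CPM in the control (-2.46, SE 0.27, adjusted p = 0.000449). Mannitol A was the highest mannitol library in these last 3 genes. OCT3, an organic cation transporter, also ranked among the decreases (-5.0, SE 0.30, adjusted p = 1.17e-08).

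Cytokinin and cell division genes were lower. IPT3, an isopentenyltransferase that starts cytokinin synthesis, had 0.407, 1.09 and 0.163 CPM in mannitol, against 14.3, 16.1 and 21.0 CPM in the control (log2 fold change -4.95, SE 0.34, adjusted p = 8.88e-08). Of 8 type-A response regulators, which cytokinin induces, 5 were lower and 1 higher by the adjusted p (median -0.65). ARR7 had 5.91, 6.27 and 7.17 CPM in mannitol and 19.4, 21.2 and 23.2 CPM in the control (-1.72, SE 0.13, adjusted p = 1.66e-07), and ARR16 was the exception, with 14.9, 12.8 and 11.6 CPM in mannitol and 2.19, 1.56 and 1.44 CPM in the control (2.92, SE 0.20, adjusted p = 5.35e-08). Of 14 mitotic cyclins and CDKB kinases tested, 12 were lower by the adjusted p and none higher, mostly by under 1 on the log2 scale (median -0.69, 2 DEGs). The DEGs numbered 4 without control C, with CYCB1;1 and CYCB2;1 added, and 1 without mannitol B, with CYCA1;1 lost. KRP1, a CDK inhibitor, rose (1.24, SE 0.20, adjusted p = 0.000140) and KRP2 was lower (-0.89, adjusted p = 8.57e-05). Of 9 regulators of the root meristem, 7 were lower and 1, BBM, higher by the adjusted p, with no DEG. The lowest, SHR, had 18.8, 17.5 and 22.1 CPM in mannitol and 39.2, 37.8 and 37.5 CPM in the control (-0.97, SE 0.10, adjusted p = 3.17e-06), and reached -1.07 without mannitol C. Ribosomal protein genes were lower by a small amount, 105 of 308 by the adjusted p against 15 higher (median -0.16). Their sum was 43038 CPM in mannitol A, 50684 in B and 53079 in C, against 52814 to 55385 CPM in the control, so that the shift was largest in mannitol A.

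SUMO components changed little. Of 32 loci described here, 31 were in the table and 26 had enough counts for a test. SUMO4 was the locus not in the table. The counts of SUMO5 to SUMO8 were too low, and the SAE1b locus AT5G50680 had counts in mannitol A and control A only. By the adjusted p, 6 of the 26 were higher and 7 lower in mannitol, together 50.0%, against 52.1% of all genes tested, and 1 was a DEG (16.4% of all genes). Their median log2 fold change was 0.05 (-0.05 with upper-quartile normalization and -0.02 without control C), and their sum was 1044 to 1116 CPM in mannitol and 948 to 970 CPM in the control.

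Among the peptides, SUMO2 had 63.4, 67.0 and 64.2 CPM in mannitol, against 69.9, 68.0 and 67.7 CPM in the control, which did not pass (log2 fold change -0.08, SE 0.07, adjusted p = 0.378). SUMO3 had 4.38, 3.18 and 4.97 CPM in mannitol and 7.62, 5.10 and 7.36 CPM in the control (-0.67, SE 0.22, adjusted p = 0.0225). The lowest control library of SUMO3 was close to the highest mannitol library. No E1 or E2 gene passed: SCE1, the only E2 enzyme, had 118, 105 and 114 CPM in mannitol and 118, 123 and 118 CPM in the control (-0.10, SE 0.07, adjusted p = 0.280), and SAE2 of the E1 averaged 62.5 ± 7.27 CPM in mannitol and 56.7 ± 0.966 CPM in the control (SD, n = 3; adjusted p = 0.208). The SAE1b loci AT5G50580 and AT5G50680 share nearly all their sequence (96.9% and 100% of windows), and their summed level was 19.2, 28.6 and 28.8 CPM in mannitol and 22.3, 24.2 and 15.9 CPM in the control.

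Of the ligases, SIZ1, the main E3 of stress sumoylation, had 122, 113 and 113 CPM in mannitol, against 94.0, 89.4 and 92.2 CPM in the control (log2 fold change 0.34, SE 0.07, adjusted p = 0.00116). The E4 ligases moved apart, PIAL2 with 23.3, 21.1 and 23.2 CPM in mannitol and 16.9, 19.2 and 16.7 CPM in the control (0.35, SE 0.11, adjusted p = 0.0134) and PIAL1 with 18, 16.3 and 16.2 CPM in mannitol and 19.9, 19.9 and 20.8 CPM in the control (-0.26, SE 0.11, adjusted p = 0.0490). HPY2, the E3 of the meristem, did not pass (-0.25, adjusted p = 0.312).

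The ULP proteases held 1 higher and 3 lower members of 8. SPF2 had 20.3, 19.4 and 19.5 CPM in mannitol, against 14.5, 13.8 and 11.8 CPM in the control (log2 fold change 0.56, SE 0.12, adjusted p = 0.00121). FUG1 (AT3G48480) averaged 1.54 ± 0.105 CPM in mannitol and 3.00 ± 0.771 CPM in the control (SD, n = 3; -0.96, adjusted p = 0.0133), and ELS2 (-0.73, adjusted p = 0.0278) and OTS1 (-0.21, adjusted p = 0.0425) were lower. OTS2, ESD4, ELS1 and SPF1 did not pass, SPF1 narrowly (0.23, adjusted p = 0.0515). The DeSI proteases held the only DEG, DeSI2b (chromosome 4, 13087973 to 13090161), with 125, 116 and 110 CPM in mannitol, against 51.5, 46.3 and 45.7 CPM in the control (1.29, SE 0.08, adjusted p = 1.91e-08). DeSI1 (0.48, adjusted p = 0.000309) and DeSI4a (0.35, adjusted p = 0.00910) were higher, and DeSI3a (-0.53, adjusted p = 9.72e-05) and DeSI3c (-0.45, adjusted p = 0.00758) were lower. DeSI3c shares 25.1% of its windows with AT5G25180, so that its nonstranded counts are uncertain. DeSI2a, the partner of DeSI2b in name, did not pass (-0.13, adjusted p = 0.284).

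Many of these calls rest on small differences. The lower members numbered 3 in place of 7 without mannitol B, control A, control B or control C, and the higher ones 5 to 8 over all fits that left out 1 library. FUG1 was a DEG without mannitol B or control A and with upper-quartile normalization. SUMO3 no longer passed without mannitol B (adjusted p = 0.0898), control A (0.0846) or control C (0.0759), and ELS2 without mannitol A (0.0831), mannitol B (0.0629), control A (0.0630) or control B (0.126). FUG1 did not pass without control B (0.0608) or C (0.0523), DeSI4a without control A (0.0505) and PIAL2 without control C (0.0605), and OTS1 without mannitol B (0.135), control A (0.108), control B (0.0974) or control C (0.0697). Among the fits that left out 1 library, PIAL1 passed only without mannitol A, and its adjusted p was 0.112 without mannitol B, 0.121 without mannitol C, 0.0837 without control A, 0.0886 without control B and 0.119 without control C. Conversely SPF1 passed without mannitol C (0.0393) or control C (0.0158), and DeSI4b without mannitol C (0.0376), as did SAE1a (0.0438). With upper-quartile normalization the median of all genes moved to -0.115 and 5 SUMO components were higher and 9 lower, with SCE1 (adjusted p = 0.0340) and SUMO2 (0.0493) then among the lower ones. PIAL2 did not pass with that normalization (0.0612), nor did PIAL1 and OTS1 with DESeq2 size factors (0.0611 and 0.0532), DESeq2's Wald test (0.146 and 0.131) or a replicate block (0.0724 and 0.0569). SIZ1, SPF2, DeSI1, DeSI2b, DeSI3a and DeSI3c passed in each fit that left out 1 library.

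**Figure D5:**
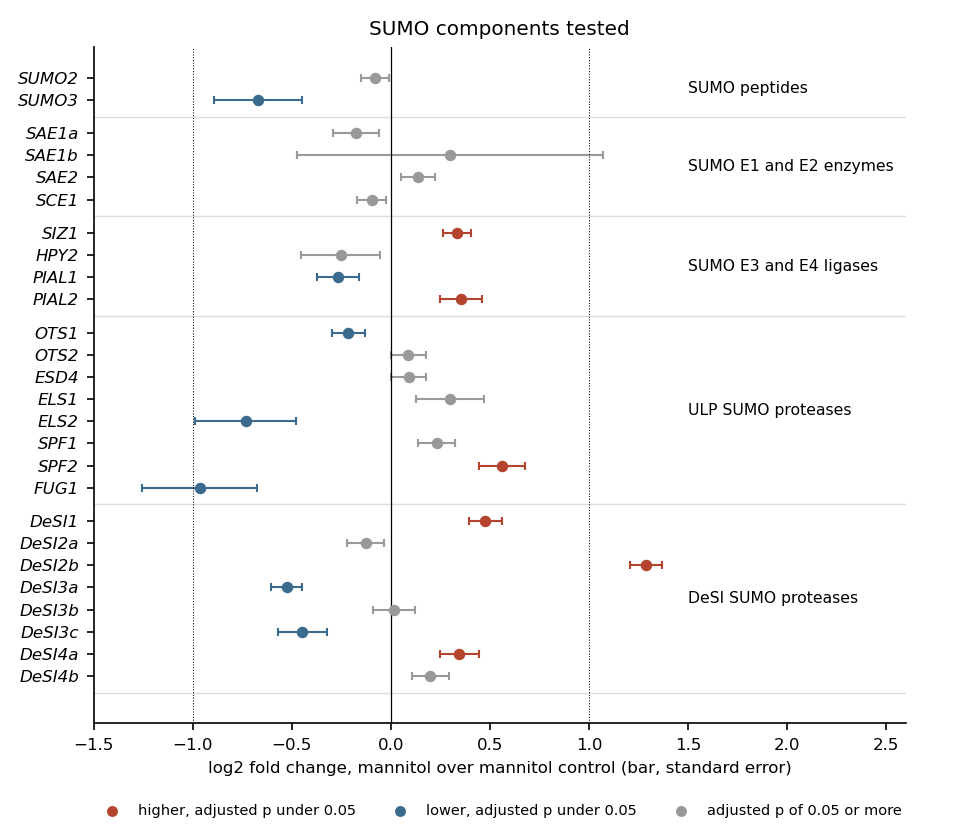
The 26 SUMO components tested, in order of their role, by log2 fold change of mannitol over mannitol control (x axis), with bars for the standard error and colours for the call by adjusted p under 0.05. Red marks the 6 that were higher, blue the 7 that were lower and grey those that did not pass, and DeSI2b (1.29) is the only component beyond 1 in size.

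The study also listed proteins found with the E2 enzyme SCE1 under mannitol, and their transcripts were looked up as a list chosen by the study. Of 44 genes tested, 1 was an up-regulated DEG (2.27%, against 8.98% of all genes) and 3 were down-regulated DEGs (6.82%, against 7.46%). By the adjusted p alone 54.5% passed, against 52.1% of all genes, 7 higher and 17 lower (median log2 fold change -0.13). The lower ones numbered 10 without mannitol B, control B or control C. SNRK2.9 averaged 26.6 ± 2.02 CPM in mannitol and 9.72 ± 2.51 CPM in the control (SD, n = 3; 1.45, adjusted p = 5.06e-06). SDR4, a short-chain dehydrogenase, averaged 35.0 ± 6.67 CPM in mannitol and 236 ± 17 CPM in the control (SD, n = 3; -2.76, adjusted p = 7.70e-10). GLL22 and AT3G14840, a receptor-like kinase, fell by 1.44 and 1.13 on the log2 scale.

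The response to mannitol was set beside the response to 150 mM NaCl, each against its own control, by an interaction term over 12 libraries. By the adjusted p alone, 41.9% of genes passed between salt and mock. Dose, medium and control differ between the experiments, so the term compares these treatments as given. It passed for 19.5% of 19363 genes, 8.0% with a higher and 11.5% with a lower response in mannitol. Of the ABA response markers, 13 of 30 passed, 12 lower and XERO1 higher in mannitol. The untreated groups themselves differed for some of these genes, so means are given for all 4 groups, with CPM scaled separately within each experiment. KIN1 differed by -4.63 on the log2 scale (adjusted p = 2.55e-06). It had 2072 CPM in mannitol and 377 CPM in its control, and 813 CPM in salt and 5.93 CPM in mock. ERD10 differed by -1.76 (adjusted p = 0.00027). It had 3546 CPM in mannitol and 531 CPM in its control, and 4209 CPM in salt and 185 CPM in mock. In both, mock lay below the control of mannitol, so a weaker response cannot be told apart from a higher starting level. The thalianol synthase THAS1 differed by -6.35 on the log2 scale (adjusted p = 0.000464), with 24.95 CPM in mannitol and 672 CPM in its control, and 43.8 CPM in salt and 15 CPM in mock. ASN1 differed by 8.07 (adjusted p = 0.000889), with 138 CPM in mannitol and 0.234 CPM in its control, and 150 CPM in salt and 68.4 CPM in mock. The type-A regulator ARR7 differed by -1.62 (adjusted p = 0.000307), with 6.45 CPM in mannitol and 21.3 CPM in its control, and 7.18 CPM in salt and 7.55 CPM in mock. In THAS1, ASN1 and ARR7 the gap lay mainly between the untreated groups, and a different response cannot be told apart from a different starting level. The ER body genes NAI2, PBP1, JAL34 and JAL33 also passed, at -1.36, -1.10, -1.45 and -1.64, and the same limit applies to them. They had 1532, 2391, 2002 and 770 CPM in the mannitol control, and 658, 835, 970 and 97.7 CPM in mock. COBL9, an anchored wall protein of hairs, differed by -1.30 (adjusted p = 0.00195), with 11.6 CPM in mannitol and 32.1 CPM in its control, and 30.1 CPM in salt and 33.5 CPM in mock. Among SUMO components, SUMO3 (-0.99, adjusted p = 0.0334) and DeSI1 (-0.77, adjusted p = 0.00122) had a lower and DeSI4a (0.72, adjusted p = 0.00691) a higher response in mannitol than in salt, and DeSI1 too began from unlike levels, with 127 CPM in mannitol and 91.6 CPM in its control, and 97.4 CPM in salt and 40.9 CPM in mock. These were 3 of 26 SUMO components tested, beside 19.5% of all genes. Over fits that left out 1 library, 2 to 4 components passed. For DeSI2b the difference was -0.09 (adjusted p = 0.694).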

How the data were processed

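Bulk poly(A) RNA-seq libraries of 3 mannitol and 3 mannitol control samples were analysed. Per the paper's methods and the labels, the authors checked and trimmed the reads (Trimmomatic), mapped them to Araport11, removed duplicates with Picard and obtained gene counts from HTSeq. Versions of these tools are not given in the sources used here. The authors deposited whole-number counts for 24618 genes without normalization. Libraries were nonstranded, so overlapping genes can share counts. The control columns carry another name than their sample titles, and were matched to it since the labels hold 2 untreated groups in all. All columns of the table were assigned (0 unused).

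From these counts, mannitol and mannitol control were compared with edgeR 4.0.16 (R 4.3.3): filterByExpr with a minimum count of 10, TMM normalization, the quasi-likelihood test with robust dispersions, and adjustment after Benjamini and Hochberg. The study named DESeq2, which was run as an alternative (version 1.42.0). CPM values use TMM factors. SE is the log2 fold change divided by the root of the F statistic. Nothing states that samples came from separate cultures, so p-values measure the spread between these samples, which may be technical. The interaction with salt was fitted over 12 libraries.

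Genes were described by 34 lists written from general knowledge, the labels and the study and 19 lists matched by product name in the annotation. The members, lists and tests were chosen with earlier results of these data known, and 1 SUMO component is not reported here. Named genes are the SUMO components, list members, DEGs ranked 4 to 15 by log2 fold change each way (mean of at least 5 CPM, groups without overlap) and the 8 DEGs each way with the largest difference in CPM. Shared sequence is the share of 100-base windows of a gene that occur in or overlap another gene. Among further genes named above, it was 67.5% for DREB2B, 30.4% for PHT1;1 and 29.9% for ABF4. For XTH15, COR15B and DeSI2a it was 25.5%, 24.9% and 19.4%.

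The settings tried instead were upper-quartile normalization, DESeq2 size factors, at least 10 counts in each library, no count filter, DESeq2's Wald test, all 15 libraries in a joint fit, a replicate block, other fold thresholds and each library left out in turn. On simulated counts for this comparison (18939 genes, 200 of them changed), 99.5% of changed genes were recovered and 1% of calls were false, or 8.7% without the fold threshold. The planted changes all lay beyond the fold threshold, left out the genes of lowest level and used dispersions estimated from these data. Recovery of smaller changes was therefore not tried, and far fewer genes changed than passed in the data. Tables were handled with Python 3.11.15 and plots drawn with matplotlib 3.10.9.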

Additional observations from a re-analysis of the deposited data

How the results depend on the processing

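No gene named here changed sign while called under any alternative run, but balances and medians near 0 did. Without a fold threshold 4933 genes were up-regulated and 4929 down-regulated, and with a linear fold of at least 1.5 there were 2915 and 2822. Upper-quartile normalization gave 1510 up-regulated and 1689 down-regulated DEGs, in place of 1701 and 1413, so that down-regulated DEGs were then the more numerous, and turned the medians of SUMO components to -0.05, in place of 0.05, and of CDK inhibitors and SUMO E1 and E2 enzymes below 0. The aquaporin median, -0.08, was 0.003 with at least 10 counts in every library and 0.006 with all 15 libraries, and the nitrate median, -0.10, was 0.05 with that filter and 0.005 without mannitol B. Over fits without 1 library, SUMO components changed numbered 5 to 8 higher and 3 to 7 lower, and with the DEG fold threshold over all libraries 1 was higher and 0 lower, and 1 lower without mannitol B or control A and with upper-quartile normalization. A minimum of 10 counts in every library left 2387 DEGs, and moved 12 of 88 counts of DEGs in functional groups, among them WRKY factors to 11 up-regulated and 3 down-regulated, SAUR and Aux/IAA genes to 9 down-regulated and LEA genes to 17 up-regulated. Upper-quartile normalization moved 4 of these 88 counts, no count filter 3, all 15 libraries 1, and fits without 1 library 11. The replicate letters did not pair the samples: deviations from the group means correlated by 0.0533 for A, 0.045 for B and -0.0706 for C. With the replicate block 1692 genes were up-regulated and 1417 down-regulated, and 3081 of its 3109 DEGs were shared with the fit without it. Genes with a few counts in 1 group are limited by depth, and their folds carry wide counting intervals.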

Other observations

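Of 53 WRKY factors tested, 17 were up-regulated and 5 down-regulated DEGs (median log2 fold change 0.47), with WRKY75 at 31.1, 22.7 and 24.9 CPM in mannitol, against 6.81, 5.65 and 7.13 CPM in the control (2.01, SE 0.15, adjusted p = 1.02e-07), and WRKY33 and WRKY40 higher by 1.68 and 2.08. Of 203 receptor-like kinases, 40 were down-regulated and 7 up-regulated DEGs (median -0.41). Among those that rose, FRK1, a kinase gene used as a marker of flagellin perception, had 17.8, 12.4 and 11 CPM in mannitol and 2.27, 1.29 and 2.12 CPM in the control (2.86, SE 0.25, adjusted p = 4.18e-07). Of 11 JAZ repressors of jasmonate signalling, 4 were higher and 3 lower by the adjusted p, with JAZ4 the only DEG (-1.56). JAZ5 was an up-regulated DEG without mannitol B (1.03), mannitol C (1.01) or control C (1.22).

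Enzyme families of specialized metabolism had DEGs both ways, to be read beside 8.98% up-regulated and 7.46% down-regulated among all genes tested. Of 142 cytochrome P450 genes, 23 rose and 36 fell as DEGs (median log2 fold change -0.19). CYP79F2, an enzyme of aliphatic glucosinolate synthesis, had 3.26, 3.54 and 5.38 CPM in mannitol, against 45.8, 58.0 and 69.3 CPM in the control (-3.81, SE 0.20, adjusted p = 3.53e-08), and CYP76C2 had 11.5, 9.18 and 11 CPM in mannitol and 0.0810, 0.136 and 0.0759 CPM in the control, all under the floor (6.59, SE 0.33, adjusted p = 1.89e-09). Glutathione transferases (8 up-regulated and 6 down-regulated of 47), UDP-glycosyltransferases (19 and 15 of 97), lipid transfer proteins (15 and 12 of 49), and SAUR and Aux/IAA genes of auxin responses (13 and 16 of 68) had medians of -0.04, 0.00, 0.22 and -0.04. Of 45 histone genes, 1 rose and 1 fell as DEGs (median -0.20). Of 10 genes for trehalose phosphate synthases and phosphatases, 4 rose and 2 fell, TPS11 to 136, 118 and 110 CPM in mannitol, against 22.7, 16.4 and 12.9 CPM in the control (2.81, SE 0.17, adjusted p = 1.03e-06).

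The transcripts of a pooled tissue at 3 h do not show which cells changed, and the tissue, whole seedling in the labels and root in the methods, was judged only by markers. Mannitol was given at 1 dose. The sampling time, the plates and the handling of the control cannot be told apart from the treatment where they differed. Transcript levels of SUMO components say nothing of SUMO conjugates.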
